A study of Saccharomyces cerevisiae with 4 samples.

Results

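The genes described here are the paired genes for proteins of the large (60S) ribosomal subunit of budding yeast, Saccharomyces cerevisiae. They were chosen by name: 60 genes, the A and B copies of 30 protein families from RPL1 to RPL43, read by their systematic identifiers in a table of 6207 gene rows. Of these, 59 genes were in the table. RPL36B (YPL249C-A) had no row, so RPL36A is described alone and 29 pairs were compared. All 59 identifiers carried the expected symbol in the RefSeq gene table of assembly R64.

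A yeast 60S subunit holds many different proteins, and most of them are encoded by a pair of genes left from an ancient duplication of the genome. The copies of a pair encode identical or closely similar proteins. Transcription of these genes by RNA polymerase II is driven through the promoter factor Rap1 together with Fhl1, its coactivator Ifh1 and the growth regulator Sfp1. Loc1 binds RNA in the nucleus, acts in 60S assembly, and is needed to bring ASH1 mRNA to the bud. Genetic work in yeast has reported that A and B copies of some ribosomal protein genes are not interchangeable, among other things for the localization of ASH1 mRNA.

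Cells lacking LOC1 (strain PSY3262) were compared with wild-type cells (strain PSY3259) on 4 arrays of 2 colours, with RNA of a knockout culture and RNA of a wild-type culture on each. The 4 arrays were separate biological replicates, and the labels put the knockout in Cy5 on arrays 1 and 4 and in Cy3 on arrays 2 and 3. All cultures (50 mL) grew in rich medium at 30 °C to an optical density of 0.2 to 0.4, so the groups differed in genotype alone as far as the labels go. The wild-type channel of array 4 carries the knockout's strain name, PSY3262, in 1 label and is called wild type in another, and the latter was followed. The labels used here do not say how LOC1 was deleted or whether the strains are single clones.

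Each value is a log ratio of knockout over wild type in deposited log units. The labels and the table do not state the base of the logarithm, so folds are stated "if base 10". LOC1 itself had deposited values of -1.20, 0.972, -1.07 and 1.31 on arrays 1 to 4, and arrays 2 and 4 were turned so that LOC1 is below 0 on every array. The dye labels do not give this direction. As deposited, arrays 1 and 4, of 1 labelled orientation, correlated at r = -0.726 across all genes, and arrays 2 and 3, also of 1 labelled orientation, at r = -0.437. "Higher in the knockout" thus means on the side opposite to LOC1, and if the true sign were the other one, all rises below would be falls and all falls rises. No value of the paired 60S genes reached the limit of the table at a size of 2. The largest was 0.294.

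The paired 60S genes were mostly higher in the knockout, by small amounts. Of the 59 genes, 30 rose (50.8%), 2 fell (3.39%) and 27 did not pass the threshold, an adjusted p of 0.05 in limma over all 6205 genes tested. Among all genes tested, 22.5% rose and 21.7% fell, 44.2% in all. With the sign turned, 2 would have risen and 30 fallen, and with the arrays turned by the dye labels 0 passed in limma, with 2 at an unadjusted p under 0.05. The median over the 59 genes was 0.0717, beside 0.0019 over all genes. The means ran from -0.0875 to 0.253, and 32 genes were above 0 on every measured array and 4 below 0 on every array. Over all genes these shares were 28.5% and 28.0%, or 56.6% together.

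The arrays differed in the size of the shift. The median of the paired 60S genes was 0.077, 0.0986, 0.0388 and 0.0715 on arrays 1 to 4. On array 3, 35 of 58 measured genes were above 0, against 50, 49 and 47 of 59 on arrays 1, 2 and 4. In 15 genes (25.4%) the mean of arrays 1 and 2 had the opposite sign to the mean of arrays 3 and 4, and none of these 15 passed the threshold. In the whole table the share with opposite signs was 22.8%. Over the paired 60S genes the turned values correlated across genes at r = 0.858 between arrays 1 and 2 and r = 0.880 between arrays 3 and 4, and at 0.589 to 0.750 between the other arrays. The labels give no pairing of these arrays. With each of these array pairs as a random block in limma, 26 genes rose and 2 fell, where 20.3% of all genes rose.

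Gene length moved with the log ratio across the whole table. Genes with RPL, RPS or RPP symbols were left out of the shares that follow, while ASC1 and mitochondrial ribosomal protein genes stayed in. Of the genes up to 500 bases 41.1% rose, and of those over 500 and up to 1000 bases 35.9%. The share was 17.3% for those over 1000 and up to 2000 bases, and 5.49% for longer genes. Over the 5652 genes with a length, Spearman's rho between length and mean log ratio was -0.417. These lengths run from start to stop codon with introns included, and genes on the same arrays are not independent. The paired 60S genes are short, between 468 and 1662 bases. Of the 4 up to 500 bases 2 rose, with a median of 0.0486. Of the 46 over 500 and up to 1000 bases 27 rose, with a median of 0.0774, and of the 9 longer ones 1 rose, with a median of -0.0016. Among the 59 genes themselves rho was -0.216. The part of gene length in the rises of the paired 60S genes was not tested.

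**Figure D1:**
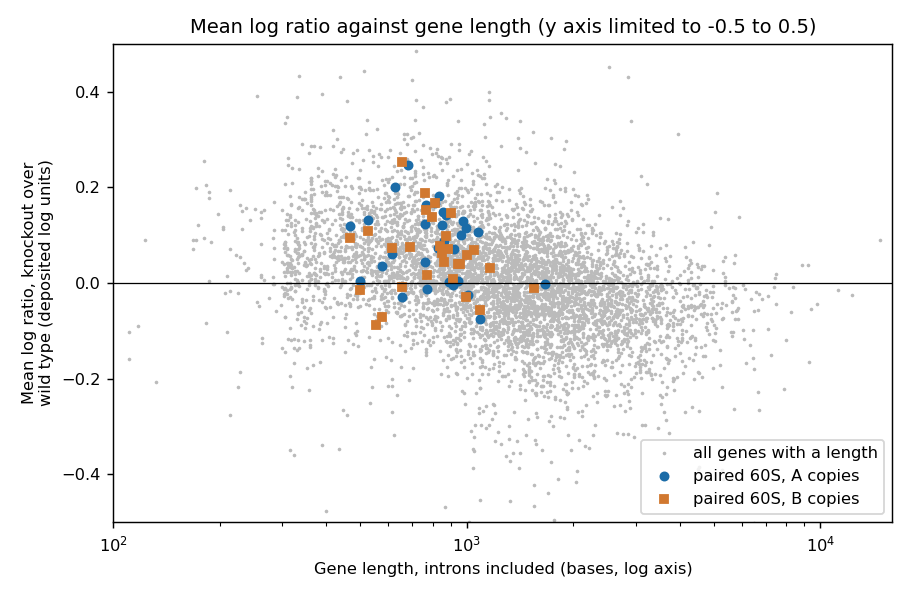
Mean log ratio of knockout over wild type (y axis, deposited log units, limited to -0.5 to 0.5) against gene length with introns (x axis, bases, log axis). Grey points are all genes with a length, and the paired 60S genes are in blue circles (A copies) and orange squares (B copies). Short genes lie higher than long ones over the whole table, with rho = -0.417, and the paired 60S genes lie between 468 and 1662 bases.

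The families with high numbers held the larger rises, a split made after the values were seen and given with no test. Of the 14 genes of families RPL1 to RPL9, 0 rose and 1 fell in limma (0 and 2 at an unadjusted p under 0.05), and their means lay between -0.076 and 0.0364 with a median of -0.0057. Of the 45 genes of families RPL11 to RPL43, 30 rose and 1 fell, with a median of 0.0974. Beside these counts, 22.5% of all genes tested rose and 21.7% fell. On arrays 1 to 4 the medians of the lower-numbered genes were 0.0124, 0.0172, -0.0589 and -0.0133, and those of the higher-numbered genes 0.0964, 0.134, 0.0693 and 0.101. The median of the higher-numbered genes was thus above that of the lower-numbered ones on each array. Among the 9 measured genes of families RPL35 to RPL43, 8 rose, and the exception was RPL43B. Across the 59 genes, Spearman's rho between family number and mean log ratio was 0.636. With introns included, the genes of families RPL35 to RPL43 ran from 554 to 854 bases and those of RPL1 to RPL9 from 576 to 1662. The part of gene length in this split was not tested.

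**Figure D2:**
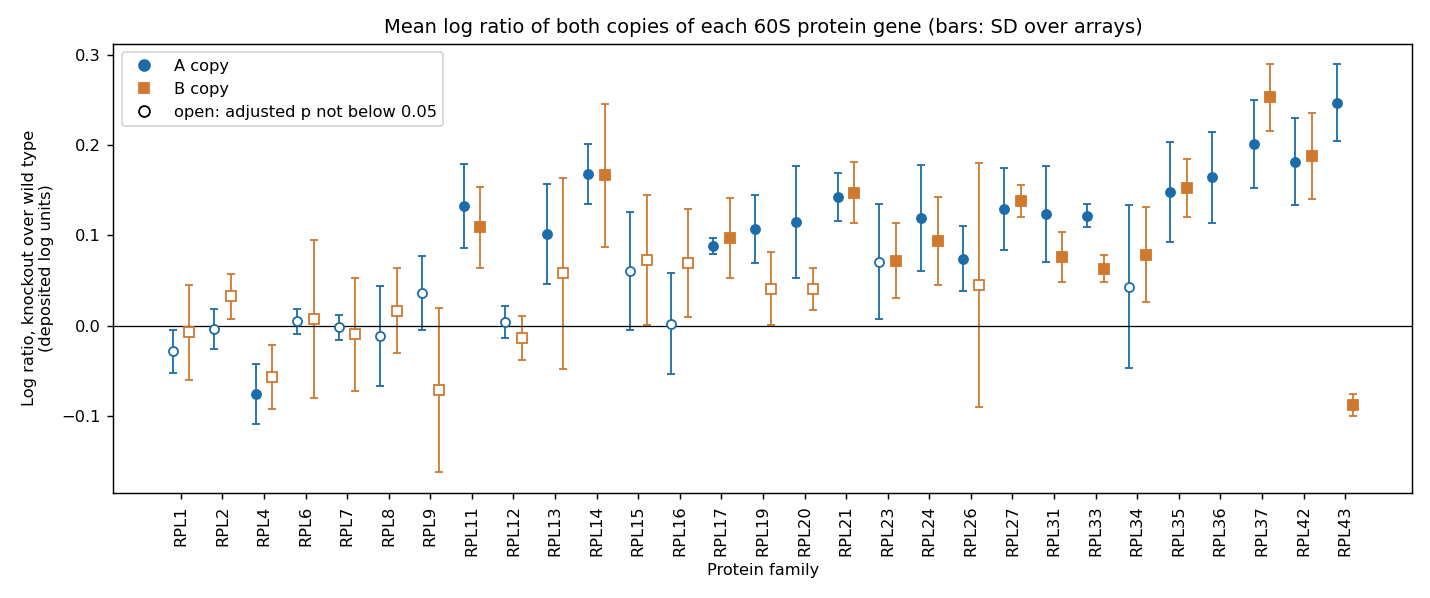
Mean log ratio of knockout over wild type (y axis, deposited log units) for the A copy (blue circles) and the B copy (orange squares) of 29 families (x axis), with bars for the SD over arrays and open symbols for genes that did not pass the threshold. The copies of most families lie close together, families RPL1 to RPL9 lie near or below 0, and RPL43A at 0.247 and RPL43B at -0.0875 lie far apart.

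The 5 highest genes belonged to 3 families of small proteins. RPL37B, which encodes a zinc-binding protein that lies in the core of the subunit's RNA, had 0.250, 0.283, 0.202 and 0.275 on arrays 1 to 4. Its mean of 0.253 ± 0.0366 (SD, n = 4, 1.79-fold if base 10) was the highest of the 59, and limma gave adjusted p = 0.00021. RPL37A had 0.219, 0.245, 0.132 and 0.208, a mean of 0.201 ± 0.0484 (SD, n = 4). Every value of both RPL37 copies was above 0, and the B copy was higher on all 4 arrays.

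RPL42 encodes a protein at the exit (E) site for tRNA. RPL42B had 0.230, 0.211, 0.121 and 0.188, and RPL42A had 0.111, 0.204, 0.195 and 0.217. Their means were 0.188 ± 0.0474 and 0.182 ± 0.048 (SD, n = 4), although the A copy was the lower one on the first 2 arrays and the higher one on the last 2. RPL36A, whose partner had no row, had 0.184, 0.217, 0.0991 and 0.156, a mean of 0.164 ± 0.05 (SD, n = 4).

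RPL43 was the pair whose copies differed most. Rpl43 is a zinc-binding protein near the L1 stalk that is needed for assembly of the 60S subunit. RPL43A (YPR043W) had 0.268, 0.294, 0.198 and 0.229 on arrays 1 to 4, and RPL43B (YJR094W-A) had -0.0963, -0.0995, -0.0792 and -0.075. The A copy was above 0 and the B copy below 0 on every array, with no overlap. RPL43A rose by 0.247 ± 0.0422 (SD, n = 4, 1.77-fold if base 10) and RPL43B fell by 0.0875 ± 0.0122 (1.22-fold if base 10), at adjusted p = 0.00028 and 0.0124 by limma. RPL43B had the lowest mean of the 59 genes, and RPL43 was the pair with 1 copy risen and the other fallen.

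The difference between copies was tested within arrays, as A minus B. For RPL43 it was 0.364, 0.393, 0.277 and 0.304, a mean of 0.335 ± 0.0534 (SD, n = 4, 95% interval 0.278 to 0.391, 2.16-fold if base 10), and limma over 56 pairs gave adjusted p = 5.1e-05. These 56 were every pair of rows whose symbols share a stem and end in A and B: the 29 pairs described here, 23 pairs of the small (40S) subunit and 4 others. In the exact sign-flip permutation test, two-sided, 2 of 16 sign patterns were as extreme, the fewest that 4 arrays allow, so this test cannot pass the threshold.

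RPL9 was the other pair that passed. Rpl9 sits near the base of the P stalk, where elongation factors bind. RPL9A had 0.0437, 0.0339, -0.016 and 0.084, and RPL9B had -0.0631, -0.0426, -0.198 and 0.0168. The values of the 2 genes overlap across arrays, but within each array the A copy was higher, by 0.107, 0.0765, 0.182 and 0.0672. The mean difference was 0.108 ± 0.052 (SD, n = 4, 95% interval 0.0525 to 0.164), with adjusted p = 0.0237 in limma over the 56 pairs and again 2 of 16 sign patterns as extreme. Neither copy passed against wild type on its own. It was 0.119 without replicate 2, where it did not pass (adjusted p = 0.061 in limma). Nor did it pass at 0.0916 on arrays 1 and 2 (adjusted p = 0.0889) or at 0.1245 on arrays 3 and 4 (adjusted p = 0.198). With arrays 1 and 2 as 1 random block and arrays 3 and 4 as another, an alternative chosen after seeing the data, it also did not pass (adjusted p = 0.205 in limma).

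In both pairs that passed, the A copy was the higher one, and with the sign turned it would be the B copy. Over the 56 pairs 6 passed (10.7%), so 2 of 29 here is below that share. The other 4 were the 40S pairs RPS27, RPS22 and RPS29 and the cytochrome oxidase pair COX5. The median size of the difference was 0.0256 over the 29 pairs and 0.0282 over the 23 pairs of the 40S subunit.

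**Figure D3:**
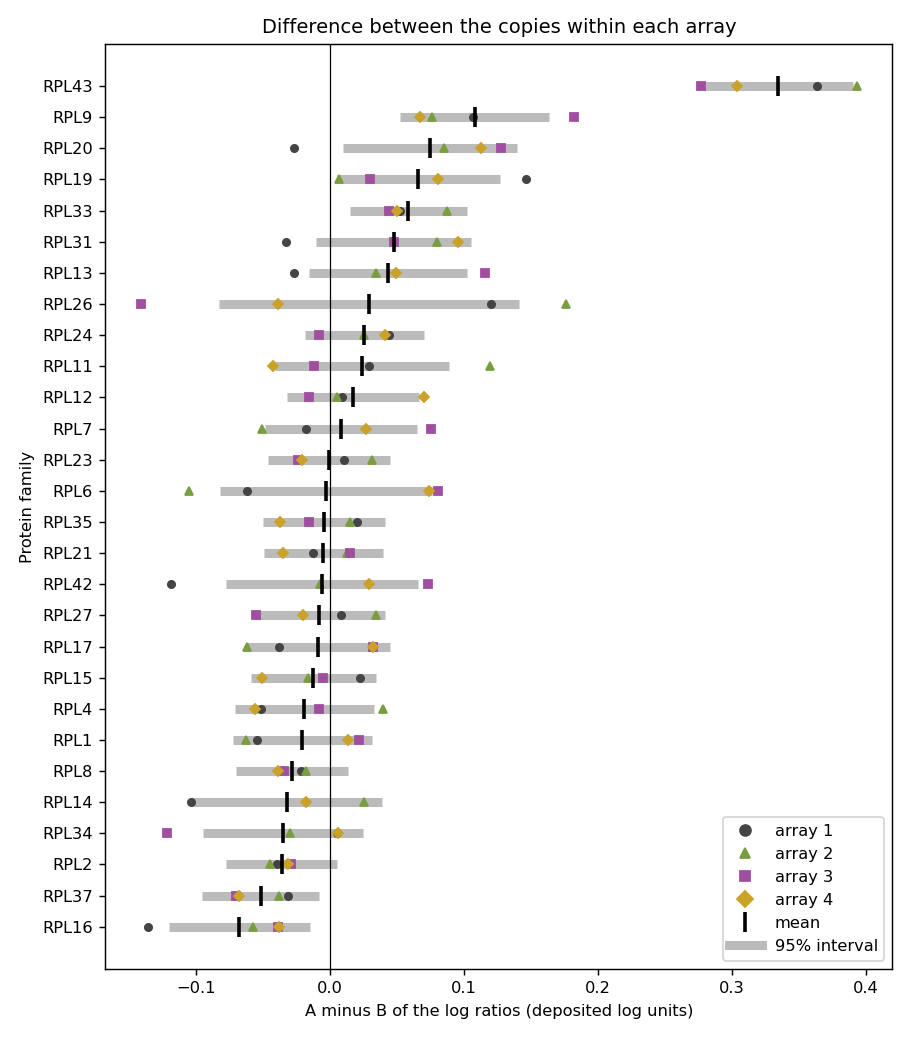
A minus B of the log ratios within each array (x axis, deposited log units) for 28 families (y axis), with 1 symbol for each array, a black tick for the mean and a grey bar for the 95% interval from limma. The intervals of RPL43 (0.278 to 0.391) and RPL9 (0.0525 to 0.164) lie well above 0, and most other intervals cross 0.

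Another 5 pairs had an unadjusted p under 0.05 and did not pass after adjustment. RPL20A had 0.0323, 0.106, 0.147 and 0.175 and RPL20B 0.0596, 0.0214, 0.0191 and 0.0624, a mean difference of 0.0746 with adjusted p = 0.131 in limma. The A copy was higher on 3 of 4 arrays, and without replicate 1, where it was lower, the difference was 0.109 with adjusted p = 0.0018. For RPL16, whose protein binds early pre-60S particles, the A copy had a mean of 0.002 and the B copy 0.0696, a difference of -0.0676 (adjusted p = 0.104 in limma), with B higher on every array.

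RPL19, of a protein that bridges the subunits, had 0.107 for A and 0.0408 for B, a difference of 0.0659 (adjusted p = 0.147 in limma). RPL33 had 0.122 and 0.0631, a difference of 0.0585 (adjusted p = 0.092 in limma). RPL37 had 0.201 and 0.253, a difference of -0.0518 (adjusted p = 0.130 in limma). In these 3 pairs the sign of the difference was the same on all 4 arrays.

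In RPL31, of a protein at the rim of the exit tunnel, both copies rose, by 0.124 and 0.0762, and the difference of 0.0474 did not pass. Without replicate 1 it was 0.0743 with adjusted p = 0.0488 in limma. RPL26, of another protein near the tunnel exit, had a B copy that split by array: RPL26B had -0.0174, -0.115, 0.170 and 0.142, an SD of 0.135 that was the highest of the 59 genes. Its A copy had 0.103, 0.0614, 0.0293 and 0.103, so A minus B was above 0 on arrays 1 and 2 and below 0 on arrays 3 and 4. On arrays 1 and 2 alone the difference passed at 0.148 (adjusted p = 0.0125 in limma), and on all 4 arrays it was 0.0291 with adjusted p = 0.861.

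The remaining pairs did not pass the threshold. In all, 17 of the 29 pairs differed by less than 0.03 in the mean and 27 by less than 0.1 in size. The half-width of the 95% interval ran from 0.0416 to 0.112, with a median of 0.0529. Differences below about that size were not detectable with 4 arrays. These intervals are not adjusted for the number of pairs, and the larger difference of 0.0746 in RPL20 did not pass either. The sign of the difference was the same on every measured array in 8 pairs, 4 with A higher and 4 with B higher, and A had the higher mean in 13 pairs and B in 16. The 30 A copies had a median of 0.0949 with 17 risen and 1 fallen, and the 29 B copies had a median of 0.0631 with 13 risen and 1 fallen.

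RPL23, RPL6 and RPL35 were among the pairs with the smallest differences. RPL23A had 0.0934, 0.140, -0.0117 and 0.062 and RPL23B had 0.0831, 0.109, 0.0119 and 0.0833, a difference of -0.00082 (95% interval -0.0462 to 0.0445). Rpl23 lies at the interface with the 40S subunit. Both copies had their lowest value on array 3, and the B copy passed the threshold at 0.0717 while the A copy, at 0.0709, did not.

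RPL35A had 0.198, 0.194, 0.0986 and 0.101 and RPL35B had 0.178, 0.180, 0.114 and 0.138, a difference of -0.0043 (95% interval -0.0498 to 0.0412). Both RPL35 copies, which encode a protein at the exit tunnel, rose. RPL6 had a mean difference of -0.0031 with a wide spread. RPL6A stayed between -0.0137 and 0.019, while RPL6B had 0.074, 0.0916, -0.0795 and -0.055. The interval of the difference ran from -0.0825 to 0.0763.

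RPL7, RPL12 and RPL14 were read in any case because A and B copies of ribosomal protein genes have been compared in work on ASH1 mRNA. RPL7A had 0.0159, 0.00059, -0.0056 and -0.0173, and RPL7B had 0.0336, 0.0517, -0.0808 and -0.0438. Neither passed, and the difference was 0.0082 (95% interval -0.0487 to 0.0651). RPL12, whose protein forms the base of the P stalk, had 0.0057, 0.0093, -0.0213 and 0.0207 in the A copy and -0.0032, 0.0041, -0.0058 and -0.0493 in the B copy. Their difference was 0.0171 (95% interval -0.0318 to 0.0661), and RPL12A had one of the means nearest to 0, at 0.0036.

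RPL14A had 0.155, 0.205 and 0.142 on arrays 1, 2 and 4 with no value on array 3, and RPL14B had 0.259, 0.180, 0.066 and 0.161. Both rose, with means of 0.167 and 0.166. The difference, over the 3 arrays with both values, was -0.0325 (95% interval -0.104 to 0.0391).

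**Figure D4:**
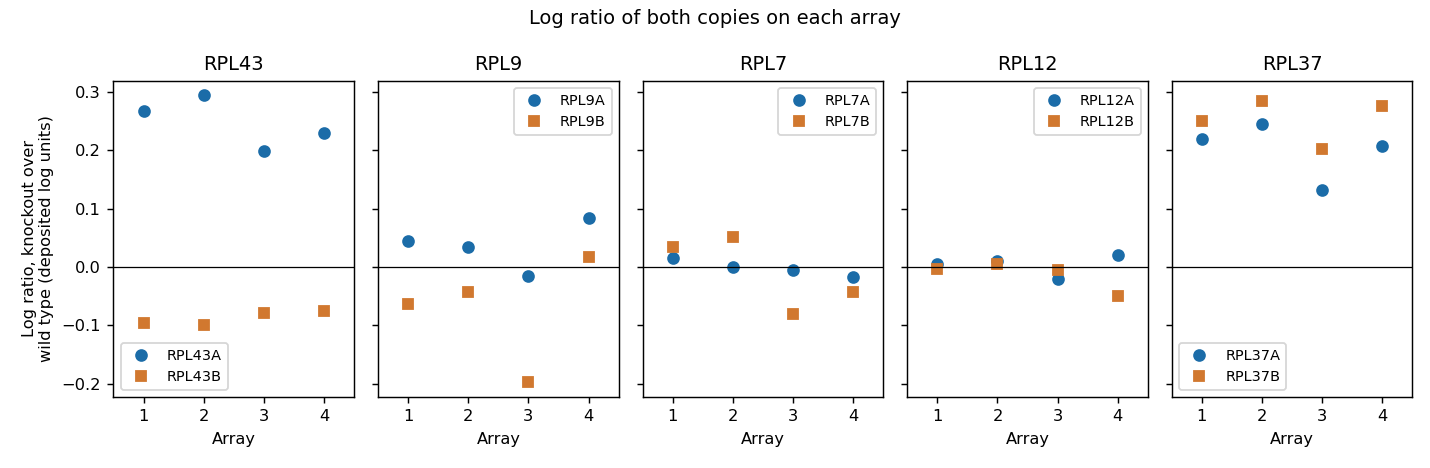
Log ratio of knockout over wild type (y axis, deposited log units) on each of the 4 arrays (x axis) for the A copy (blue circles) and the B copy (orange squares) of 5 families. RPL43A stays at or above 0.198 and RPL43B below 0 on every array, RPL9A lies above RPL9B on each array, and the RPL7 and RPL12 copies lie close to 0.

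Calls agreed within most pairs. In 11 of the 29 pairs both copies rose, in 10 neither passed, in 4 the A copy rose and the B copy did not pass, and in 2 the B copy rose and the A copy did not pass. RPL4 was the pair with a fallen A copy and a B copy that did not pass, and RPL43 had opposite calls. Across the 29 pairs the means of the A and B copies correlated at r = 0.581 (Spearman's rho = 0.674). Over the 28 pairs without RPL43, left out for its large difference, r was 0.858. Over the 23 pairs of the 40S subunit r was 0.487. These are correlations across genes measured on the same arrays. Probe sequences were not used here, and copies with near-identical sequence may share signal on the array. The part of shared signal in this likeness was not tested.

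The genes were also read by the place of their proteins in the subunit, where each count stands beside 50.8% risen and 3.39% fallen of the 59 genes and 22.5% and 21.7% of all genes. The groups are small and the differences between them were not tested. Among the proteins that line or surround the exit tunnel, 7 of 10 genes rose and 1 fell. RPL4A, of a protein that reaches into the tunnel, had -0.0678, -0.0324, -0.105 and -0.0987, and it fell by 0.076 ± 0.0333 (SD, n = 4), with adjusted p = 0.0307 in limma. RPL4B had -0.0161, -0.0716, -0.0971 and -0.0427, a mean of -0.0569 that did not pass, although it was below 0 on every array. Only RPL43B had a lower mean than RPL4A among the 59 genes. RPL17A at 0.0884 ± 0.009 had the smallest SD of the 59 genes, and RPL17B rose by 0.0974 and RPL26A by 0.0742. With 1 replicate left out, RPL4A lost its call without replicate 1, 3 or 4 (adjusted p = 0.0736 to 0.13 in limma), RPL17A without replicate 3 (0.0517), RPL17B without replicate 1 (0.0592), RPL26A without any 1 of the 4 (0.053 to 0.128) and RPL31B without replicate 1, 2 or 3 (0.065 to 0.114).

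Of the 6 genes of the L1 stalk and the E site, 3 rose and 1 fell. The risen and fallen ones are the RPL42 and RPL43 genes above, and RPL1A, at -0.0282, and RPL1B, at -0.0075, did not pass. Of the 6 genes at the stalk base and 5S rRNA, 2 rose: RPL11A by 0.132 ± 0.0466 and RPL11B by 0.109 ± 0.0446 (SD, n = 4). Rpl11 enters the subunit together with Rpl5 and 5S rRNA. Of the 6 genes of the subunit interface, 4 rose: RPL19A by 0.107, RPL23B by 0.0717, RPL24A by 0.119 and RPL24B by 0.0936. Rpl24 joins the subunit late, in the cytoplasm. RPL23B lost its call without replicate 1, 2 or 4 (adjusted p = 0.122 to 0.13 in limma), and RPL24B without replicate 1 or 2 (0.0599 to 0.0787).

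Of the other 31 genes, 14 rose and 0 fell in limma (0 fallen at an unadjusted p under 0.05). Beside the RPL14, RPL36 and RPL37 genes, both copies of RPL21 rose, by 0.142 and 0.147, and both of RPL27, by 0.129 and 0.138. RPL33A, RPL33B, RPL20A, RPL13A and RPL34B were the remaining rises, from 0.0631 in RPL33B to 0.122 in RPL33A. RPL33B and RPL34B lost their calls without any 1 of the 4 replicates (adjusted p = 0.0612 to 0.144 in limma), RPL20A without replicate 3 or 4 (0.0563 to 0.0593) and RPL13A without replicate 1 or 2 (0.0524 to 0.0709). RPL13B had a mean of 0.058 ± 0.106 (SD, n = 4) with one value below 0, -0.0748 on array 3, and RPL34A had 0.0433 ± 0.0907 with -0.0854 on array 3. RPL15A and RPL15B, at 0.0604 and 0.0728, did not pass, and both were below 0 on array 2 and above 0 on the other arrays.

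Genes of this group that stayed near 0 included RPL16A, at a mean of 0.002, and those of the lower-numbered families. RPL2A had a mean of -0.0038 and RPL2B 0.0324, with B higher on every array by 0.0289 to 0.0452 and a difference of -0.0362 that did not pass (adjusted p = 0.246 in limma). RPL8A had -0.0118 and RPL8B 0.0164, again with B higher on every array, and a difference of -0.0282 (adjusted p = 0.402 in limma). Rpl2 lies close to the peptidyl transferase centre and Rpl8 binds early pre-60S particles.

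The remaining genes of the ribosome were read from lists. Of 9 measured single-copy 60S genes, 5 rose and 0 fell in limma (55.6% risen, against 22.5% of all genes, and 0 fallen at an unadjusted p under 0.05), with a median of 0.103. RPL39, of a small tunnel protein, had a mean of 0.252, RPL28 0.216, RPL5 0.162 and RPL38 0.158. RPL5 encodes the protein that binds 5S rRNA with Rpl11. Among genes of other 60S pairs that were measured, RPL22A at 0.215, RPL41A at 0.138, RPL40A at 0.120 and RPL40B at 0.113 rose (4 of 4). None of the 5 genes of the P stalk passed in limma (0 at an unadjusted p under 0.05), with RPP0 at -0.0512 and RPP2A at 0.0486, and their median was 0.0227.

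Of 47 measured genes of paired 40S proteins, 24 rose and 2 fell (51.1% risen, median 0.0781), with RPS27A (0.264), RPS30B (0.217), RPS29A (0.199) and RPS9B (0.195) the highest. Beside these, the paired 60S genes had 50.8% risen and a median of 0.0717. Of 9 single-copy 40S genes, 2 rose, RPS3 by 0.1247 and RPS20 by 0.115, and ASC1, of the scaffold protein on the 40S head, fell by 0.185. That is 22.2% risen beside 22.5% of all genes, and the median of the 9 was -0.0221.

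**Figure D5:**
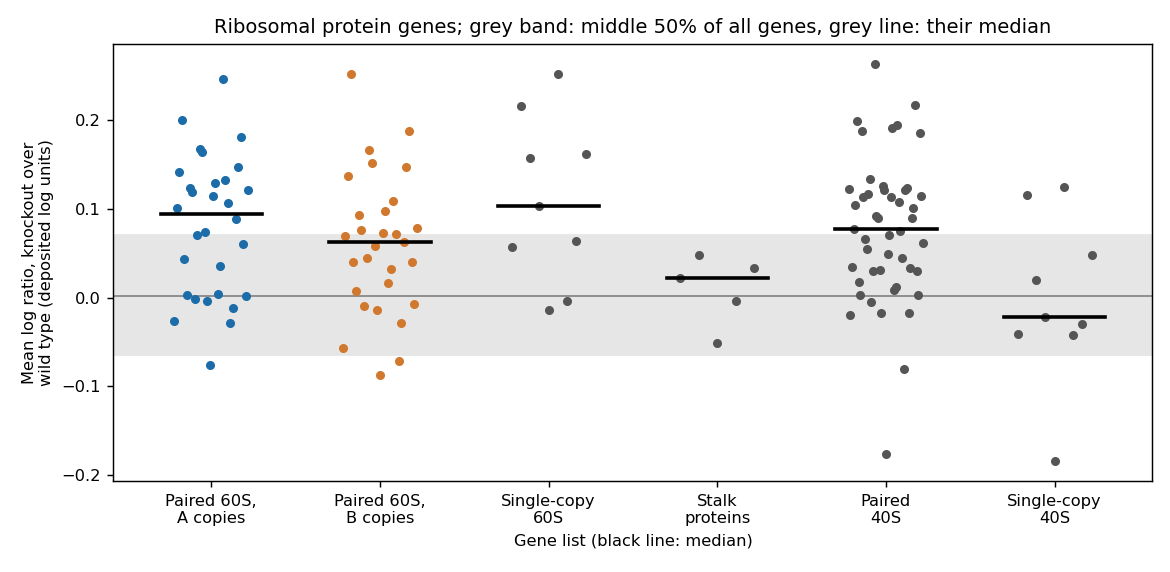
Mean log ratio of knockout over wild type (y axis, deposited log units) of each gene (points) in lists of ribosomal protein genes (x axis), with a black line for each list's median and a grey band for the middle 50% of all genes. The medians were 0.0949 for the A copies and 0.0631 for the B copies of the paired 60S genes, 0.103 for single-copy 60S genes and 0.0781 for paired 40S genes, and the stalk genes lay lower, at 0.0227.

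Of 13 regulators of ribosomal protein gene transcription, 3 rose and 2 fell, a share of 23.1% risen beside 22.5% risen and 21.7% fallen of all genes tested. Their median was 0.0075. Without 1 replicate the number past the threshold went down to 3 without replicate 1 and to 2 without replicate 3 or 4. The processome gene RRP7, whose product joins Ifh1 and Utp22 in a complex, rose by 0.129, the corepressor gene CRF1 by 0.0979 and ABF1, of a promoter-binding factor, by 0.095, while SFP1 fell by 0.0911. Of 5 genes for dedicated chaperones of 60S proteins, 2 rose: BCP1, of the chaperone of Rpl23, by 0.169, and SYO1, which carries Rpl5 and Rpl11 into the nucleus, by 0.144.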

How the data were processed

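Messenger RNA of 4 knockout and 4 wild-type cultures was copied with an oligo-dT primer, labelled with Klenow polymerase and compared on 4 arrays of 2 colours, per the labels' protocols. Each gene has 1 log ratio per array, as deposited by the authors. No source states the base. That the deposited ratios are log10 is an assumption, resting on their limit at a size of 2. No label or header names the scanner, the background correction or the normalization. The deposited columns had medians of 0.007, -0.0107, 0.0012 and 0.0119 and were not centred again.

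Arrays were turned so that LOC1 is below 0. Rows of 3 controls were left out. Genes with values on at least 3 arrays were tested with limma 3.58.1 in R 4.3.3 (lmFit and eBayes, 1 mean against 0, two-sided, Benjamini-Hochberg over 6205 genes). A minus B was fitted the same way over 56 pairs. Intervals are moderated 95% intervals. Precision is limited by the number of arrays, and probe brightness was not used here.

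The genes named with values on each array were both copies of pairs that passed, the 4 pairs with the smallest differences, the 5 highest and 5 lowest genes, and RPL7, RPL12 and RPL14. Other genes given array by array were chosen after their values were seen. For lists, up to 4 genes past the threshold with the largest changes were named, or the 2 with the smallest p. The genes and lists were chosen with earlier results of these data known. Names, gene lengths and gene order came from the RefSeq gene table of assembly R64 (5654 rows matched, 553 did not). No coordinates are given because no source names the array's genome build. Sequences were not used here. Of the genes, 1 and the difference from its partner entered the counts and fits and are not reported here.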

Additional observations from a re-analysis of the deposited data

Results flagged for a closer look

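Over 86 sets of 4 values (58 genes and 28 pair differences), 1 had a value far from the other 3 by Dixon's test, where chance gives about 1 in 20. RPL21B had 0.097 on array 3 and 0.158 to 0.170 on the other arrays.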

How the results depend on the processing

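The counts and values were recomputed with other directions, array subsets, centring and a term for the turned arrays. Further settings were values at the limit as missing, a robust prior and each replicate left out. Without 1 replicate at a time, between 23 and 27 of the 59 genes passed in limma, 22 to 25 of them higher and 1 to 2 lower. The median of the 59 genes was then 0.0658 to 0.0891, the median size of A minus B was 0.0219 to 0.0325, and 1 to 4 pairs passed. Without some replicate 11 genes lost their call (RPL4A, RPL13A, RPL17A, RPL17B, RPL20A, RPL23B, RPL24B, RPL26A, RPL31B, RPL33B and RPL34B), and 21 kept it without each. RPL14A, with no value on array 3, was not tested on arrays 3 and 4 alone. With a term in the fit that set arrays 1 and 3 against the turned arrays 2 and 4, 25 genes rose and 1 fell. This split is not that of the labelled dyes, for which no term was fitted. On arrays 1 and 2 alone 18 rose and 0 fell in limma (1 fallen at an unadjusted p under 0.05), and the median size of A minus B was 0.0346. On arrays 3 and 4 alone 23 rose and 2 fell, that median was 0.0382, and 1 pair passed. Centring, values at the limit as missing, and the robust prior left each count within 1 of its value, and the 29 pairs fitted alone gave the same 2 calls.

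With arrays turned by the dye labels, 0 of the 59 genes rose, 0 fell and 0 of the 29 pairs passed in limma, while 2 genes and 4 pairs had an unadjusted p under 0.05. Over all genes tested 1 passed and 72 had an unadjusted p under 0.05. In this direction LOC1 itself lies below 0 on arrays 1 and 2 and above 0 on arrays 3 and 4. The median of the 59 genes was then 0.0185 and that of the size of A minus B 0.0219. Among genes that had passed with arrays turned on LOC1, means of the other sign were RPL4A 0.0259, RPL11B -0.0369, RPL17A -0.0052, RPL20A -0.0458, RPL31A -0.0145, RPL33A -0.00067, RPL33B -0.0118 and RPL42A -0.0244. Means of genes that had not passed also changed sign, among them RPL26B, from 0.045 to -0.111, and RPL9B, from -0.0717 to 0.0188. A minus B was 0.044 in RPL43 and -0.0164 in RPL9.

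With the sign turned on all arrays, 2 genes rose and 30 fell, the median was -0.0717, and A minus B was -0.335 in RPL43 and -0.108 in RPL9. All means turn, and those of the genes that had passed were RPL4A 0.076, RPL11A -0.132, RPL11B -0.109, RPL13A -0.101, RPL14A -0.167, RPL14B -0.166, RPL17A -0.0884 and RPL17B -0.0974. Likewise turned were RPL19A -0.107, RPL20A -0.115, RPL21A -0.142, RPL21B -0.147, RPL23B -0.0717, RPL24A -0.119, RPL24B -0.0936 and RPL26A -0.0742. So were RPL27A -0.129, RPL27B -0.138, RPL31A -0.124, RPL31B -0.0762, RPL33A -0.122, RPL33B -0.0631, RPL34B -0.0785 and RPL35A -0.148. The last were RPL35B -0.152, RPL36A -0.164, RPL37A -0.201, RPL37B -0.253, RPL42A -0.182, RPL42B -0.188, RPL43A -0.247 and RPL43B 0.0875.

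The cause of these changes was not tested, beside the fewer arrays of the subsets. The comparison without pairs of identical proteins was not run, because sequences were not used here. No paired analysis was possible because the labels give 1 group of arrays with no shared numbers, and each array already holds 1 knockout and 1 wild-type culture. A random block of arrays 1 and 2 and of arrays 3 and 4 was added after seeing the data, from the likeness of those arrays. Its estimated correlation was 0.13 over genes and 0.468 over pairs. RPL23B, RPL26A, RPL33B and RPL34B then lost their calls (adjusted p = 0.0512 to 0.0623 in limma), 28 genes kept theirs, and 1 pair passed (RPL43). Signal over background is unknown, and 4 arrays limit the precision.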

Other observations

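The genes next to the pairs whose copies differed were read after their values were seen, in the gene order of the RefSeq table. Beside RPL43B, at -0.0875, lies SFC1, of a mitochondrial succinate-fumarate carrier, which rose by 0.161 ± 0.149 (SD, n = 4). Beside RPL43A, at 0.247, lie PUF2, with 0.207 ± 0.668, and THP3, with -0.0427 ± 0.136 (SD, n = 4), and neither passed. Beside RPL9B, at -0.0717, lies SUN4, a cell wall gene, which fell by 0.166 ± 0.0418, and beside RPL9A, at 0.0364, lies ARO2, of aromatic amino acid synthesis, which fell by 0.0847 ± 0.0349, and RRT6, with 0.0052 ± 0.0371, which did not pass. Of all 101 measured neighbours of the 59 genes, 17 rose and 23 fell, beside 22.5% and 21.7% of all genes tested.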
